A study of Mus musculus with 8 samples.

Results

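The peaks described here are the 1273 Foxk1 peaks on mouse chromosome 17, out of 28933 in the whole list. They were selected by the chromosome given for each peak in the deposited list, with no other filter, and all 1273 are counted below. The chromosome was singled out because earlier results of the same list had shown high signal values there, so every value is given as a description and none is tested. The list came from chromatin immunoprecipitation followed by sequencing (ChIP-seq), in which fragments of sonicated chromatin bound by an antibody are sequenced and places with an excess of fragments are called as peaks. The chromatin was from untreated mouse embryonic fibroblasts (MEFs) grown in DMEM, a standard culture medium. There were 8 libraries, with 3 from the Foxk1 antibody, 3 from control IgG and 2 from input chromatin with no antibody; the labels give no genotype, strain, age or passage. By its track line the list sets Foxk1 over input (assembly mm9), and it holds 1 value per peak and none per library. Replicate error and read depth are therefore unknown, IgG was not set against any peak here, and enrichment specific to the antibody cannot be told apart from other enrichment over input. Fewer cells with Foxk1 bound at a place and weaker binding in each cell cannot be told apart either.

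Foxk1 is a transcription factor of the forkhead family, whose winged-helix domain binds DNA. It also carries a forkhead-associated domain that binds phosphorylated partners, and it can recruit the Sin3 corepressor complex. In nutrient-rich cells it is known as a repressor of autophagy genes, and Foxk1 and its relative Foxk2 are known to favour aerobic glycolysis. Mouse chromosome 17 has its centromere at the low end of the coordinates and carries the t-complex and the H2 complex, the mouse major histocompatibility complex. Annotation and sequence of mm9 were not used here, so no peak below is assigned to a gene and none is given a sequence.

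Every peak was 460 bp wide with the summit in the middle, and the 1273 peaks together covered 585.6 kb without allowance for overlap. The signal value is the authors' own number for each peak and has no stated scale. On chromosome 17 it had a lowest value of 11.3, a median of 18.1 and a highest value of 299.9. The 25th and 75th percentiles were 13.44 and 30.03 on chromosome 17, against 13.46 and 27.5 on the other chromosomes (1 to 16, 18, 19 and X, 27659 peaks). The weak part of the list on chromosome 17 was thus level with that elsewhere, whereas its 75th percentile was the highest of the 20 chromosomes compared. Chromosome 5 came next, with a 75th percentile of 29.98. The lowest deposited q-value, 0.00014, was given to 163 peaks of chromosome 17, which is 12.8% of its peaks, against 12.3% on the other chromosomes.

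The first peak of the chromosome lay at chr17:3084247-3084706 (mm9, as are all positions below), with a signal value of 19.97. The last was at chr17:95233887-95234346, with a signal value of 32.6, and it overlapped the peak before it, whose summit was 337 bp away and whose signal value was 24.4. With the end of the last peak as the length, chromosome 17 carried 13.4 peaks per Mb, against 10.9 on the other chromosomes pooled, and it ranked 6th of 20. The chromosomes nearest to it in length, by the same measure, carried 9.58 peaks per Mb (chromosome 16, 939 peaks) and 12.3 peaks per Mb (chromosome 18, 1108 peaks). Chromosome 19 was the densest, with 21.9 peaks per Mb, so the density of chromosome 17 was raised but not extreme.

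Windows of 1 Mb, counted from position 1 and assigned by summit, showed an uneven landscape of blocks. The 93 windows from the first to the last peak held a median of 11 peaks and at most 46. The fullest 10 windows held 366 peaks, or 28.8% of the chromosome's peaks. Taken as the share of peaks in the fullest 10% of windows, this ranked 9th of 20, where the other chromosomes lay between 22.02% on chromosome 11 and 39.5% on X. The variance of the counts was 9.27 times their mean on chromosome 17, which ranked 5th of 20. The others had a median of 7.72 and lay between 5.57 on X and 10.3 on chromosome 14. With the other chromosomes pooled it was 9.54 times, but that value also holds the differences in density between chromosomes. By these measures the clumping of peaks on chromosome 17 lay within the range of the other chromosomes and above their median.

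The fullest 1 Mb window was chr17:84000001-85000000, with 46 peaks, a median signal value of 20.4 and 4 peaks of 50 or more. Its peaks were spread through the window, since 8 of its 10 windows of 100 kb held between 3 and 11 peaks and the first 2 held none. The window chr17:35000001-36000000 held 42 peaks in separate groups. There, 11 peaks lay in its last 100 kb, from 4 to 7 in each of its first 4 windows of 100 kb, and none from 35400001 to 35600000. The window chr17:71000001-72000000 held 40 peaks in all 10 of its windows of 100 kb, from 1 to 7 in each, with a median signal value of 23.1 and 7 peaks of 50 or more. Next were chr17:80000001-81000000 with 39 peaks, chr17:14000001-15000000 with 37 and chr17:75000001-76000000 with 35. The last of these had as many peaks as chr17:79000001-80000000, which also held 35. The fullest stretch of 1 Mb started at any summit, a measure chosen after seeing the data, ran from 79336429 to 80332171 and held 57 peaks.

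Neighbouring windows formed longer blocks. Blocks were taken as runs of windows with at least 10 peaks, a limit chosen after seeing the data. This limit lies below the median of 11 peaks, so most windows of the chromosome passed it. Windows with 10 to 19, 20 to 29 and 30 or more peaks were 34.4%, 14.0% and 11.8% of its windows. On the other chromosomes they were 28.1%, 13.3% and 6.12%. Long blocks thus took in windows of ordinary count. The fullest block was chr17:78000001-85000000, with 197 peaks in 7 windows, or 28.1 peaks per Mb. These 7 windows held 15.5% of the chromosome's peaks, with a median signal value of 19.8 and 15 peaks of 50 or more. The longest block was chr17:23000001-31000000, with 161 peaks in 8 windows. Further blocks of 6 windows ran from 32000001 to 38000000, with 119 peaks, and from 42000001 to 48000000, with 129. The chromosome ended in a sparse stretch. From 89000001 to the last peak only 24 peaks were listed, with a median signal value of 15.5 and 1 peak of 50 or more, which reached 85.9.

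**Figure D1:**
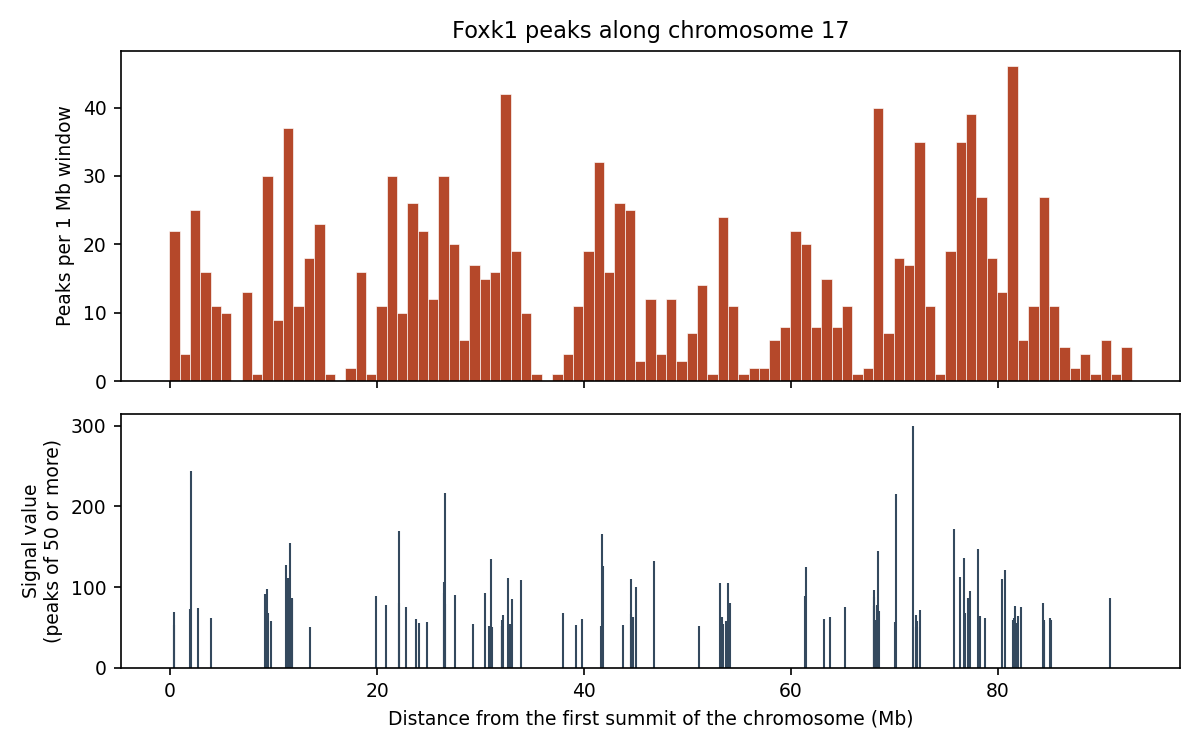
Upper panel: number of Foxk1 peaks in each 1 Mb window of chromosome 17 against the distance of the window from the first summit, in Mb. Lower panel: signal value, without unit, of each of the 107 peaks of 50 or more at its distance from the first summit; the tallest bars of the upper panel reach 46 and 42 peaks, and the tallest line of the lower panel is the peak of 299.9.

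Empty windows of 1 Mb were few for a chromosome of this list. Only 3 of the 93, or 3.23%, held no peak, against 12.7% on the other chromosomes pooled. The median of this share by chromosome was 9.24% over the others. With the windows shifted by 0.5 of their width, 5 were empty. The 3 without the shift were chr17:9000001-10000000, chr17:19000001-20000000 and chr17:39000001-40000000. Nearly empty windows were not few, since 22 windows, or 23.7%, held 1 to 4 peaks, against 21.3% on the other chromosomes. The longest interval between neighbouring summits was 2.20 Mb, from 38739867 to 40939977, and it was followed by 2.04 Mb from 18062256 to 20106852. The next were 1.73 Mb from 8503827 to 10234134, 1.62 Mb from 59241740 to 60860380, 1.40 Mb from 54449002 to 55851954 and 1.31 Mb from 91214809 to 92520072. Of the 12 summits that border these 6 intervals, 2 had an above-median signal value, of 37.4 and 26.5. The other 10 lay between 11.4 and 16.2. Over the whole chromosome 51.3% of peaks were above-median. In all, 12 intervals exceeded 1 Mb and took up 18.1% of the distance from the first to the last summit. Those not named above were bordered by pairs of 33.4 and 14.9, 18.2 and 47.9, and 11.7 and 38.9. Further pairs were 15.4 and 13.8, 14.7 and 48.9, and 23.3 and 27.7. Low values at the borders thus did not hold for the long intervals in general. Since depth is unknown, an empty stretch shows only that no peak was called there.

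In windows of 100 kb the chromosome was close to evenly divided between windows with and without a peak. Of 923 such windows 468 were empty, or 50.7%, against 55.8% on the other chromosomes. A single peak was held by 162 windows, 2 to 3 by 170, 4 to 6 by 93, and 7 or more by 30. The 30 fullest windows were 3.25% of the windows of chromosome 17 and held 20.7% of its peaks. On the other chromosomes, windows with 7 or more peaks were 2.21% of the windows and held 16.6% of the peaks. Chromosome 17 thus had a larger part of its peaks in crowded windows than the pool of the others. It also had more peaks per Mb than the pool, 13.4 against 10.9, and these shares are not adjusted for that.

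The fullest window of 100 kb, chr17:80100001-80200000, held 17 peaks. Its peaks spanned 80.9 kb from first to last summit, with a median spacing of 3.57 kb, a closest pair 673 bp apart and a widest interval of 13.1 kb. One peak stood out, at chr17:80145401-80145860 with a signal value of 85.96. A second, at chr17:80141823-80142282, had a signal value of 35.9, and the other 15 lay between 12.5 and 28.1. In this window 12 of 17 peaks were at or above the list median of 17.8. The 6 peaks from 80137721 to 80145860 formed a chain, each under 5 kb from the next. The adjoining window at lower coordinates held 2 peaks and the one at higher coordinates 6. Beyond the first of these, chr17:79900001-80000000 held 11, and all 4 windows lie within the fullest stretch of 1 Mb given above.

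**Figure D2:**
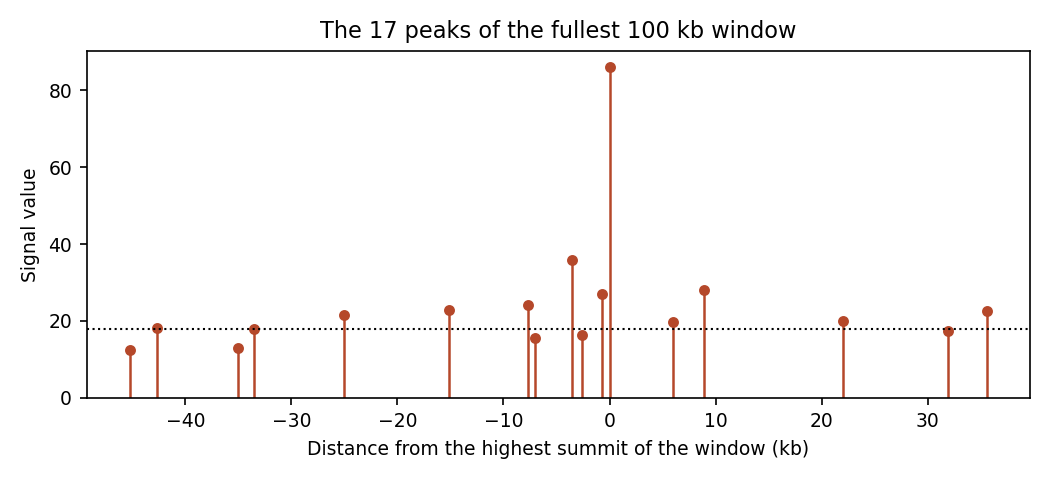
Signal value, without unit, of each of the 17 peaks in the fullest 100 kb window of chromosome 17, against the distance in kb of its summit from the highest summit of the window. The dotted line is the list median of 17.8; 12 of the 17 peaks are above it and 1, of 85.96, is far above the rest.

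The next fullest windows of 100 kb had other make-ups. The window chr17:63000001-63100000 held 12 peaks, none of them over 47.8, with a median of 22.1. Windows with 11 peaks started at 12900001, 17900001, 35900001, 79900001 and 84500001. Their median signal values were 13.8, 25.97, 16.4, 18.6 and 25.2 in that order, so equally crowded windows differed in how strong their peaks were. The highest peak in these 5 windows was 61.4, in the window at 84500001.

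Summits on chromosome 17 were a median of 20.5 kb apart, with 25th and 75th percentiles of 4.37 and 60.2 kb, against a median of 25.1 kb on the other chromosomes. The closest pair was 202 bp apart, with summits at 13200648 and 13200850 and signal values of 19.2 and 12.4. Overlap was found in 35 pairs of neighbours, 2.75% of the pairs on chromosome 17, against 2.62% on the other chromosomes. In these 35 pairs the higher signal value was a median of 1.47 times the lower. The most unequal pair, at 7.50 times, was that of 216.97 and 28.9 with summits 412 bp apart.

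Another summit within 5 kb was found for 566 of the 1273 peaks, or 44.5%, against 39.3% on the other chromosomes, and chromosome 17 ranked 3rd of 20 by this share. Within 500 bp the shares were 6.05% on chromosome 17 and 6.43% on the other chromosomes, and within 2 kb they were 27.7% and 25.7%. Most of the difference thus came from spacings of 2 to 5 kb, which made up 11.01% of intervals on chromosome 17 and 8.84% on the other chromosomes. Chains of peaks under 5 kb apart numbered 233. Of these, 172 had 2 members, 36 had 3, and 25 had 4 or more, while 707 peaks stood alone. No chain exceeded 6 members, and 6 chains reached that size.

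The strongest peak was chr17:74888543-74889002, with a signal value of 299.9, which is the 3rd highest of the whole list. It had 2 other peaks within 10 kb, of 35.4 at a distance of 2.34 kb and of 31.7 at 7.96 kb, and its 1 Mb window held 17 peaks. The second, chr17:5138668-5139127 with a signal value of 243.5, stood apart, with its nearest summit 48.1 kb away and of only 15.9. The third, chr17:29629739-29630198 with 216.97, closed a chain of 6 peaks that ran over 7.41 kb. Its 5 companions all lay at lower coordinates and had signal values of 40.2, 16.5, 42.3, 12.03 and 28.9 in map order. The strongest peaks therefore stood in surroundings of each kind, alone and in company.

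The fourth peak, chr17:73185426-73185885 with a signal value of 214.95, had neighbours of 56.7 at 8.19 kb and 21.3 at 2.85 kb. The fifth, chr17:78799413-78799872 with 171.5, had 5 others within 10 kb, from 11.5 to 39.4. The sixth and seventh had signal values of 170.01 at chr17:25152721-25153180 and 165.2 at chr17:44846789-44847248, the second of these in a 100 kb window of 10 peaks. The next 3 had 154.7, 146.5 and 144.3 and started at 14677414, 81171784 and 71514277. The last 5 of the 15 lay between 125.5 and 135.7 and started at 79841872, 34077050, 49890178, 14277167 and 44904286. Of these 15, 10 had a neighbour within 10 kb, and none of those neighbours was above 56.7. As the 15 were picked as the highest of the chromosome, lower neighbours follow from that choice.

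Of the 15 strongest peaks, 10 had another summit within 10 kb and 5 did not, against 56.9% with one among all peaks of the chromosome. Within 2 kb, 5 of the 15 had a neighbour. Their 1 Mb windows held from 10 to 40 peaks, with a median of 27, and their 100 kb windows held from 1 to 10. The pair at 14277167 and 14677414 shared the 1 Mb window at 14000001, and the pair at 44846789 and 44904286 shared that at 44000001.

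The share of peaks of 50 or more on chromosome 17 was close to that of the whole list, and the shares at limits of 100 and 35 were higher. All of these shares come from the signal values for which the chromosome was chosen, so nothing is read from them. Signal values were 50 or higher at 107 peaks, or 8.41% (exact 95% interval 6.94% to 10.1%), where the share over the whole list was 7.97%. They were 100 or higher at 27 peaks, or 2.12%, where the whole list had 1.47%. They were 35 or higher at 245 peaks, or 19.2%, where the whole list had 16.4%. Chromosome 17 ranked 6th of 20 at the limit of 50 and 2nd at the limit of 100, after chromosome 19 with 2.31%. These intervals, and those below, cover counting error only and treat peaks as independent, which neighbouring peaks are not, so they are too narrow.

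Peaks in windows with many peaks had higher signal values. In windows of 1 Mb with fewer than 10 peaks the median signal value was 15.2 over 124 peaks, with 10 to 19 it was 17.7 over 444, with 20 to 29 it was 18.5 over 309, and with 30 or more it was 20.1 over 396. The share of peaks at 50 or more in these classes was 4.84%, 6.76%, 8.09% and 11.6%. In windows of 100 kb the median signal value was 15.7 where a peak was alone and 19.9998 where there were 7 or more. The same classes of 100 kb windows on the other chromosomes had medians of 15.998 and 19.1, a gradient in the same direction. At close range the order was the other way on chromosome 17. Its peaks with another summit within 2 kb had a median signal value of 17.4 and those without one had 18.7, while on the other chromosomes these medians were 18.5 and 17.5. Within 1 kb they were 17.7 and 18.3 on chromosome 17, against 18.8 and 17.6 on the other chromosomes. Within 5 kb they were 18.8 and 17.7 on chromosome 17, against 18.5 and 17.3 on the other chromosomes.

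The feature for which the chromosome was singled out is the signal of its above-median peaks, that is, of peaks at or above the list median of 17.8. There were 653 of these on chromosome 17, or 51.3%, where the whole list has 50% by construction. Just inside the limit were peaks of 17.89 and 17.90, and just outside it were peaks of 17.82 and 17.79. The median of the 653 was 29.4 (95% interval 28.3 to 31.01, from the ranks), against 27.5 (27.3 to 27.8) on the other chromosomes, a difference of 1.95. It was the highest of the 20 chromosomes. Chromosomes 5 and 19 followed with 29.33 and 29.32 and with intervals of 28.2 to 30.3 and 27.9 to 31.3, so the order of these 3 was not resolved. The medians of chromosomes 11, 10, 15 and 6, from 28.40 to 28.48, also lay inside the interval of chromosome 17. The intervals of chromosomes 16, 18, 14 and 9 overlapped it too, with upper ends of 29.9, 29.6, 29.1 and 28.4. Chromosome 12 was lowest, with 24.9. The 25th percentile of the above-median peaks was 22.4 on chromosome 17 and 21.4 on the other chromosomes, and it ranked 2nd of 20. Their 75th percentile was 40.4 against 40.2 and ranked 8th, and their 90th was 64.3 against 61.4 and ranked 5th. The top rank thus held for the median of the set and not for its upper end. Below the list median, the median was 13.4 on chromosome 17 and 13.5 on the other chromosomes.

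**Figure D3:**
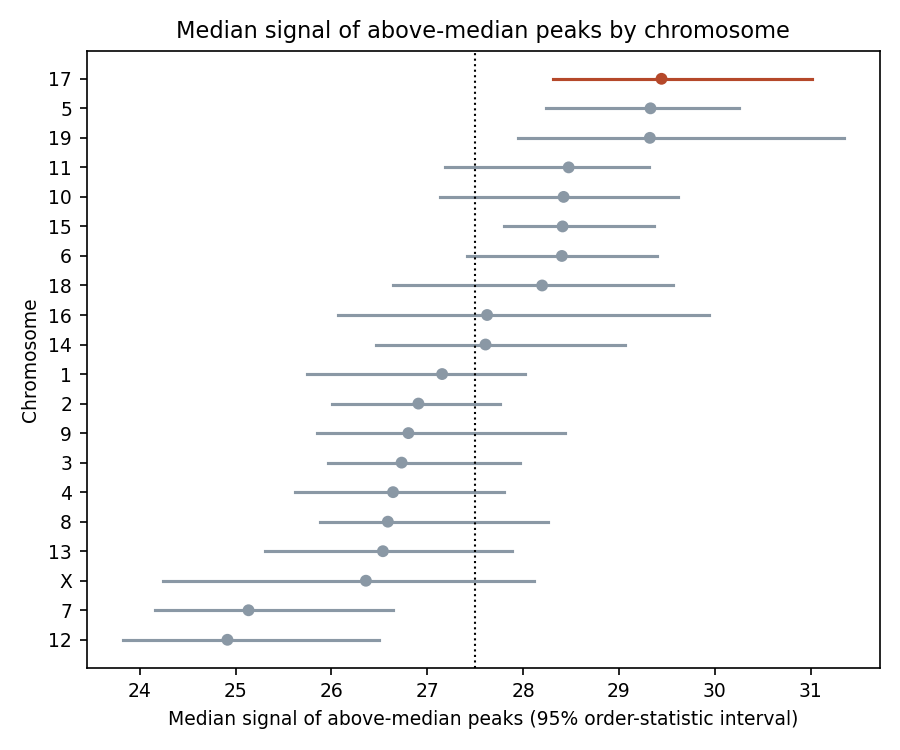
Median signal value, without unit, of the peaks at or above the list median on each of 20 chromosomes, highest at the top; bars are 95% intervals from the ranks, with peaks treated as independent, and the dotted line is the median of 27.5 over all chromosomes other than 17. Chromosome 17, at 29.4, is at the top, and the medians of chromosomes 5, 19, 11, 10, 15 and 6 lie inside its interval.

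By number of peaks, the surplus over the share of the other chromosomes was largest in the middle of the signal range, and a smaller number was added by the strongest peaks. The class from 35 to 50 held 138 peaks of chromosome 17, or 10.8% (exact 95% interval 9.19% to 12.7%), against 8.36% on the other chromosomes. This was the highest share of the 20 chromosomes, followed by chromosome 19 with 10.2%, which lies within that interval. At the share of the other chromosomes, chromosome 17 would have had 106.4 such peaks, or 31.6 fewer than it had. The class from the list median to 25 was short by a like number, with 230 peaks against 262.2 at the share of the others. The class from 25 to 35 held 178 peaks, 11.9 more than at that share, and the class from 50 to 100 held 80, against 82.8 at that share. The class from 100 to 200 held 23 peaks, against 15.9 at that share, and the class of 200 or more held 4, against 2.49. Relative to their number, the peaks of 100 or more were thus in larger surplus than those from 35 to 50, but they were few. When peaks of 50 or more were left out, the median of the above-median peaks was 27.1 on chromosome 17, against 25.2 on the other chromosomes.

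Narrower classes placed most of the surplus between 35 and 40. That class held 75 peaks of chromosome 17, or 5.89%, against 3.68% on the other chromosomes and 4.43% on chromosome 13, the next highest. It accounted for 28.2 of the 31.6 peaks above the share of the others. From 40 to 45 the shares were 3.38% on chromosome 17 and 2.79% on the other chromosomes, and from 45 to 50 they were 1.57% and 1.88%. In the class from 20 to 25 they were 11.2% and 12.4%. The bounds of these classes were set after the data were seen, and a class picked for its surplus overstates it.

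**Figure D4:**
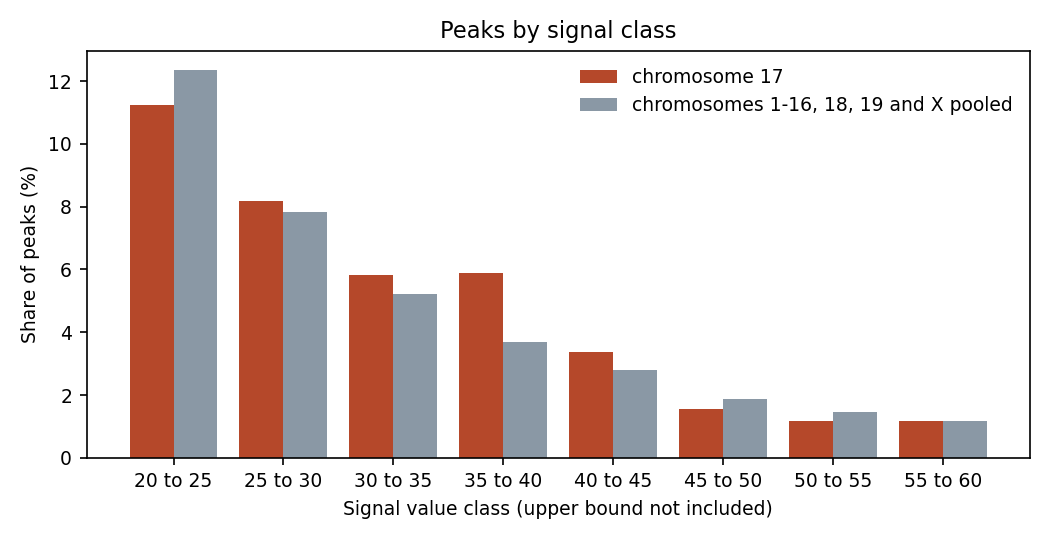
Share of all peaks, in percent, that fall in each class of 5 signal units between 20 and 60, for chromosome 17 (left bar of each pair) and for the other chromosomes pooled (right bar). The widest gap is in the class from 35 to 40, with 5.89% on chromosome 17 against 3.68% on the others.

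The peaks of this class were scattered. The 75 peaks from 35 to 40 lay in 41 windows of 1 Mb, with at most 4 in one, and in 67 windows of 100 kb, with at most 2 in one. They had 75 different signal values, and only 2 neighbouring pairs of them were under 5 kb apart. Of the 75, 38 had some other peak within 5 kb, or 50.7%, against 44.1% of the remaining peaks of the chromosome. The wider class from 35 to 50 occurred in all 10 stretches of 10 Mb, with between 1 and 25 peaks in each. The fullest 1 Mb window, at 84000001, held 10 of its 138 peaks, the most of any.

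The values by stretch and the medians with a stretch left out come from the same signal values for which the chromosome was chosen, and describe only where those values lay. Of the 9 stretches of 10 Mb with at least 30 above-median peaks, 8 had a median above the 27.5 of the other chromosomes, with a range from 27.49 to 31.6. On the other chromosomes, 99 of 194 such stretches were above 27.5, or 51.03%, and they ranged from 21.99 to 34.97. The lowest on chromosome 17 was its first 10 Mb, with 27.49 over 47 peaks, and the highest was from 30000001 to 40000000, with 31.6 over 70 peaks. Leaving out each stretch in turn left the median of the chromosome between 29.37 and 29.94, and the difference from the others between 1.87 and 2.44.

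The direction of the difference depended on where the limit was set. With limits of 15 and 20 in place of the list median, chromosome 17 exceeded the others by 1.97 and 1.72. With limits of 25, 30 and 35 its median was lower than that of the others, by -0.31, -2.28 and -3.13, and it ranked 11th, 19th and 18th of 20. With a limit of 40 it was higher again, by 1.98, and with a limit of 50 by 7.75, with 75.4 over 107 peaks of chromosome 17 against 67.7 over 2198 of the others. Peaks just above 35 lie above the median of the sets that start at 15 and 20, and below that of the sets that start at 30 and 35. They are not part of the sets that start at 40 and 50. Their part in these differences was not tested. The figure of 1.95 describes the limit at the list median only.

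**Figure D5:**
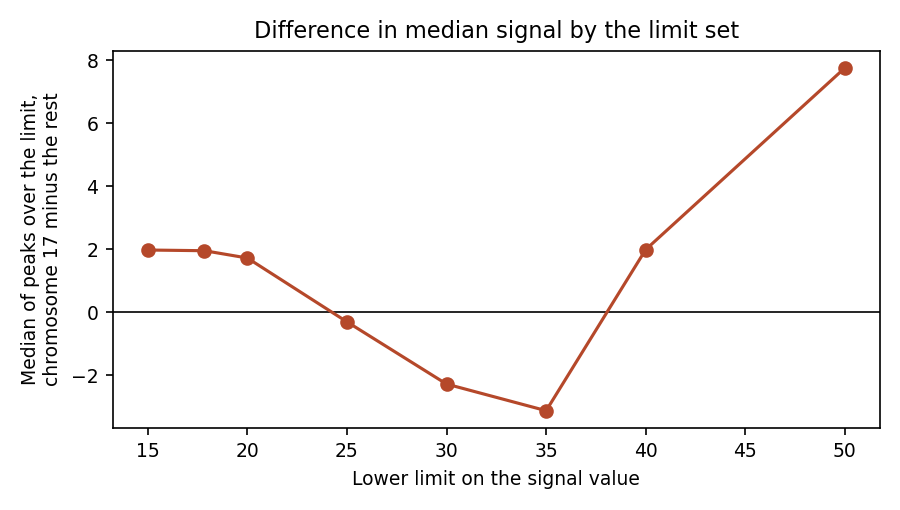
Median signal value of the peaks at or above a limit on chromosome 17 minus that on the other chromosomes (vertical axis, signal units) for 8 limits on the signal value (horizontal axis). The difference is near 2 for limits up to 20, falls below 0 for limits of 25, 30 and 35, and is 7.75 at a limit of 50.

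On chromosome 17, how the median of the above-median peaks went with crowding differed with the size of the window. In windows of 100 kb, above-median peaks of chromosome 17 had a median of 30.8 where they were the only peak and 29.8 where there were 7 or more, against 26.5 and 28.8 in the same classes on the other chromosomes. In windows of 1 Mb with fewer than 10 peaks, the above-median peaks of chromosome 17 had a median of 25.8. This class was small, as only 37.1% of its 124 peaks were above-median. In windows of 1 Mb with 10 to 19, 20 to 29 and 30 or more peaks, the medians on chromosome 17 were 29.6, 29.9 and 30.03. Classes of 1 Mb windows were not computed on the other chromosomes, where the above-median peaks of all windows had a median of 27.5. Within the above-median set of chromosome 17, peaks alone in 100 kb thus did not have a lower median than those in crowded windows. Those in sparse 1 Mb windows had a lower median than those in fuller ones. The class alone in 100 kb was small too, as 40.1% of its 162 peaks were above-median. No interval was computed for the median of either small class. Above-median peaks of chromosome 17 with another summit within 5 kb had a median of 29.52, and those without one had 29.41. At closer range those with a neighbour were lower, with 28.7 against 29.7 within 2 kb, 28.5 against 29.7 within 1 kb and 27.7 against 29.7 within 500 bp. The cause of the high signal values on the chromosome was not tested.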

How the data were processed

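ChIP-seq libraries of MEFs (3 Foxk1, 3 IgG, 2 input) were grouped by the antibody label, and input also by title. Reads were aligned to mm9 with Bowtie, per the submitters' processing notes; for its version, the peak caller, the settings and any pooling, nothing is given in the sources used here. Deposited by the authors was 1 narrowPeak list with a signal value per peak (a score without a stated scale) and a q-value per peak on a linear scale, from 0.00014 to 0.00995, per the file's values. Depth is unknown. The 1 peak on Y was left out of comparisons between chromosomes.

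Summits were counted in windows starting at position 1, in Python 3.11.15 with numpy 2.4.6, pandas 2.3.3, scipy 1.17.1 and matplotlib 3.10.9. Intervals of shares were exact binomial and those of medians came from the binomial distribution of ranks, both at a level of 0.95. No test was run, because the list has no replicates and the chromosome was chosen from it. The chromosome, the limits and the lists were chosen with earlier results of these data known. Items named are the 15 strongest peaks, the 6 fullest windows of each size, the 6 longest intervals and the first and last peak; others were named after their values were seen. Procedures were checked on simulated positions. A gene table of another assembly was not set against these coordinates, so genes, promoters and sequences are not reported.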

Additional observations from a re-analysis of the deposited data

How the results depend on the processing

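Every alternative for the difference from the other chromosomes, its limits on the signal value and the omission of peaks of 50 or more included, was chosen after seeing the data. Keeping only above-median peaks, or only those with a q-value of at most 0.001, left 653 and 671 of the 1273 peaks. A lower density and a wider spacing follow from such a filter by construction. Density was then 6.86 and 7.05 peaks per Mb, median spacing 40.2 and 39.5 kb, the fullest 1 Mb window 27 and 29 peaks, the empty 1 Mb windows 18 and 17, and the share of peaks in the fullest 10% of windows 32.6% and 33.1%. At that q-value 15.9% of peaks reached 50. The same share over the 14844 peaks that this limit left on all 20 chromosomes was not computed. At most 2305 of the 14844 can reach 50, as that is the number in the whole list. The 15.9% cannot be set beside the 7.97% of the unfiltered list. Without the q-value limit, a limit of 35 or 100 in place of 50 gave 19.2% or 2.12%, where the whole list had 16.4% and 1.47%. Merging summits less than 2000 bp apart left 1080 regions, with a median of 31.2 for the above-median ones and a spacing of 28.8 kb. Windows shifted by 0.5 of their width gave 5 empty windows and 25.4% in the fullest 10%. The difference in median from the other chromosomes, 1.95, was -0.31, -2.28 and -3.13 with limits of 25, 30 and 35, and 7.75 with a limit of 50. It kept its sign in all other alternatives run for it, between 1.72 and 2.56. No paired analysis was possible because the list holds no value per replicate, and for the same reason no replicate could be left out. Depth is unknown, so windows with no peak may hold binding below the authors' threshold.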

Other observations

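Signal values near the bottom of the list were often identical between peaks. On chromosome 17, 265 peaks (20.8%) had a signal value equal to that of at least 1 other peak of the list to 6 decimals, against 22.7% on the other chromosomes. Only 21 of the 265 were above-median peaks, and the highest value shared was 37.4.

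The unequal sides of the chain of 6 peaks that ends at the peak of 216.97 were not repeated at the fifth strongest peak. There, 2 of the 5 peaks within 10 kb lay at lower coordinates, with signal values of 13.8 and 17.9, and 3 at higher ones, with 35.9, 39.4 and 11.5.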
